A study of Mus musculus with 32 samples.

Results

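Gene expression was compared between 5 neonatal oligodendrocyte progenitor cell (OPC) cultures treated with lysine acetyltransferase inhibitors and 5 treated with an inhibitor of the SUV420 histone methyltransferases. These 10 RNA-seq libraries, chosen by the treatment and age in their labels, are part of a series of 32. All cultures came from the cortex of wild-type C57BL/6 mice at postnatal day 5, were selected for the O4 surface antigen, and were kept dividing in medium with PDGF-AA, bFGF and forskolin. The acetyltransferase arm (KATi) received 5 µM garcinol together with 0.2 µM NU-9056 for 48 h, so the effects of these compounds cannot be told apart. The methyltransferase arm (SUV420i) received 5 µM A-196 for 48 h. Vehicle cultures of the same age (5 libraries, 0.02% DMSO for 48 h) and the matching comparison in cells from mice at postnatal day 60 (4 KATi and 4 SUV420i libraries) are given beside the results. Each library carries a letter, A to E in neonatal cells, that recurs across the treatments. The labels speak of biological replicates but do not say which animals or cultures a letter stands for, and the p-values therefore rest on the spread among the cultures as labelled.

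OPCs are dividing glial cells that mature through a committed, newly formed stage into oligodendrocytes, which wrap axons in myelin. Lysine acetyltransferases add acetyl groups to histones, a mark of active chromatin. Garcinol inhibits the acetyltransferases EP300 and PCAF, and NU-9056 inhibits KAT5. The enzymes KMT5B and KMT5C, which A-196 inhibits, add the further methyl groups to lysine 20 of histone H4 after KMT5A has placed the first, and the trimethylated form marks compacted chromatin.

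The letters accounted for more of the variation than the treatment. Over 17057 genes tested in these 10 libraries, the letter took a median 63.1% of a gene's variance in log2 CPM (CPM is a gene's reads scaled to a common library total) and the inhibitor 5.87%. There are more letters than treatments, so the letter takes the larger share even where neither has an effect. These shares were not corrected for that. Cultures A and B stood apart under both treatments. Sox10, a transcription factor of the whole oligodendrocyte lineage, stood between 41.9 and 85.5 CPM in the 4 libraries of letters A and B and between 503 and 772 CPM in the 6 of letters C to E. Erbb3, a neuregulin receptor, followed the same split (0.388 to 3.61 against 20.6 to 51.6 CPM), as did S100b (5.41 to 10.7 against 20 to 74.6 CPM). The OPC markers Olig1 (1990 to 2470 CPM), Olig2 (1120 to 1390 CPM) and Cspg4 (493 to 732 CPM) were high in all 10 libraries. Library totals ran from 23494139 to 32852225 counts under KATi and from 25588591 to 38266526 counts under SUV420i. Lead results are therefore also given for letters C to E alone, an alternative chosen after the data were seen.

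How many genes differed depended on whether libraries were compared within a letter. Without the letter, edgeR's quasi-likelihood test over all 32 libraries called 0 of 20259 genes at an adjusted p below 0.05 (0% called, smallest adjusted p 0.31), with 1149 genes at an unadjusted p below 0.05. DESeq2 called 9. With the letter as a block, the same edgeR test on the 10 libraries called 185 of 17057 genes (1.08%), 53 higher under KATi (0.311%) and 132 lower (0.774%). In that blocked test, 2359 of the 17057 genes had an unadjusted p below 0.05. Of the 185, 182 differed in the same direction in all 5 letters, against 6.24% of all genes that were higher and 7.43% that were lower under KATi in every letter. A test within letters favours genes whose letters agree, so this share describes the calls and is no separate support for them. The CPM values of both treatments did not overlap for 30 of the 185 genes, and for 165 of all 17057 (0.967%). The called differences had a median of 0.63 among higher genes and -0.70 among lower ones on the log2 scale, while the median over all genes was -0.01. The count moved with the letters used. It was 43 without letter A, 96 without B, 2 without C, 777 without D, 11 without E and 58 (18 higher, 40 lower) with letters C to E only, 41 of which were among the 185. The 2 genes called without letter C were Gjc3 and Enpp6. All values that follow come from the fit with the letter as block unless stated, and KATi minus SUV420i is the direction of every fold change. On simulated counts this blocked fit made more false calls than its threshold implies. Calls with an adjusted p just below 0.05 are therefore the least secure.

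**Figure D1:**
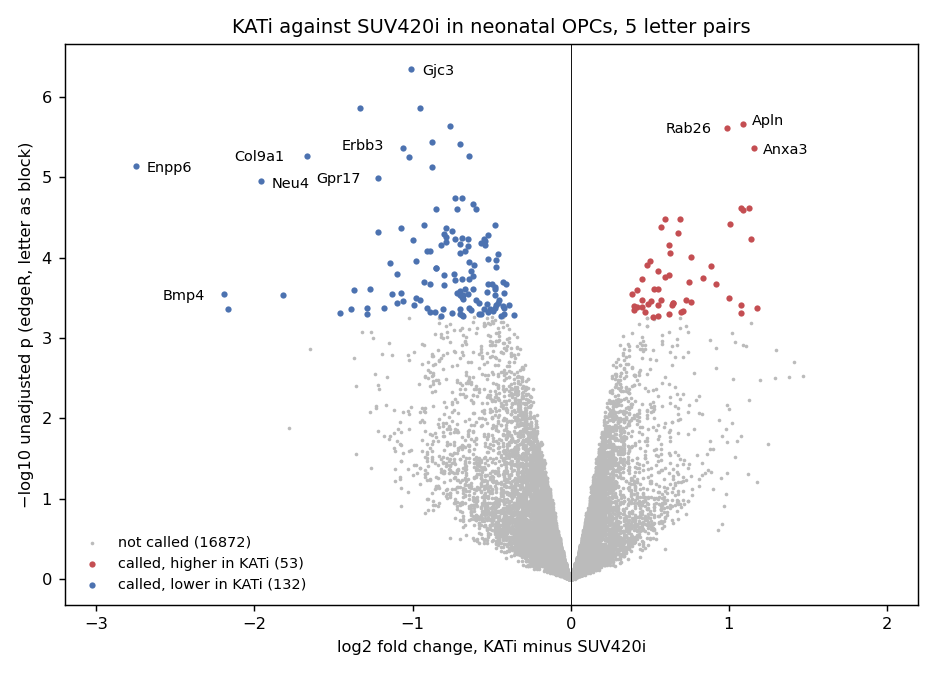
Each point is 1 of 17057 genes, plotted by its log2 fold change (KATi minus SUV420i, 5 letter pairs) and by the −log10 of its unadjusted p from edgeR with the letter as block. The 132 genes called lower under KATi (blue) reach further from 0 than the 53 called higher (red), down to -2.75 for Enpp6.

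Some genes of the step from progenitor to newly formed oligodendrocyte, among them Gpr17, Neu4 and Enpp6, were lower under KATi than under SUV420i. Of 18 measured genes of committed and newly formed oligodendrocytes, 4 were called lower and 0 higher, with a list median of -0.34 (all genes -0.01). Of 25 OPC markers, 4 were called lower and 0 higher (median -0.26), and of 13 measured myelin genes 3 were called lower and 0 higher (median -0.08). Over all genes, 0.774% were called lower and 0.311% higher. Each of these lists was chosen with earlier results known, so its count describes these libraries. In a bulk sample, fewer cells of a stage and less RNA per cell cannot be told apart.

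Gpr17 encodes a receptor carried by committed progenitors before they become mature oligodendrocytes. It stood at 163, 31.5, 556, 1310 and 475 CPM under KATi in letters A to E, and at 341, 48.8, 1450, 2530 and 1870 CPM under SUV420i. KATi was lower in each letter, although the groups overlapped because letters A and B were low under both treatments. The log2 fold change was -1.22 ± 0.16 (SE, adjusted p = 0.0107), and -1.44 ± 0.17 in letters C to E (adjusted p = 0.0127). Gpr17 shares exon bases with Lims2 on the opposite strand, which was also called (-0.98 ± 0.17, adjusted p = 0.0289), and without a stated strand setting their reads cannot be told apart.

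Enpp6, a choline phosphodiesterase that marks newly forming oligodendrocytes, had the largest difference of all called genes, at very low levels. Its values were 0.0443, 0, 0.324, 0.965 and 0.4 CPM under KATi and 0.18, 0.155, 0.906, 8.8 and 3.11 CPM under SUV420i. KATi was lower in each letter, and most of the absolute level came from letters D and E under SUV420i. The log2 fold change was -2.75 ± 0.34 (adjusted p = 0.00842). Bmp4, a secreted signal of the BMP family that newly formed oligodendrocytes also express, reached 5.8 CPM in 1 SUV420i library and was at 0 in KATi letters A and B (-2.19 ± 0.41, adjusted p = 0.0428). It shares exon bases with another gene model, and its call did not hold in letters C to E (adjusted p = 0.0648). Myrf, the transcription factor that switches on myelin genes, stood at 5.36, 6.63, 24.4, 54.5 and 18.9 CPM under KATi and at 8.88, 6.55, 52.3, 96.9 and 58.6 CPM under SUV420i. In letter B these values were level, and in the other 4 letters KATi was lower (-0.91 ± 0.18, adjusted p = 0.0465). Bcas1, which labels early myelinating cells, averaged 364 ± 232 CPM (SD, n = 5) under KATi and 621 ± 401 CPM under SUV420i (-0.68 ± 0.13, adjusted p = 0.0457). Its exons overlap antisense transcripts, of which Bcas1os2 was called too (-1.10 ± 0.22, adjusted p = 0.0464). The other 14 genes of the committed list were not called. They include Itpr2 (-0.30, adjusted p = 0.393) and Tcf7l2 (-0.12, adjusted p = 0.679), which also mark this stage. The 4 calls on this list became 0 without letter E, 1 without A or C and 3 without D.

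Called myelin genes included a lipid enzyme and a membrane-compacting protein. Fa2h, which hydroxylates the fatty acids of myelin lipids, averaged 6.11 ± 6.8 CPM (SD, n = 5) under KATi and 13.3 ± 11.7 CPM under SUV420i (-1.22 ± 0.19, adjusted p = 0.0224). Mbp, myelin basic protein, averaged 8.33 ± 5.17 and 13 ± 6.72 CPM (-0.73 ± 0.11, adjusted p = 0.0224). With letters C to E only, the Fa2h call held (adjusted p = 0.04) and that of Mbp did not (adjusted p = 0.126). Genes of later, compact myelin were close to 0 in all 10 libraries, with Mog between 0.0904 and 0.271 CPM and Mag between 0.0388 and 0.725 CPM. Cldn11, a tight-junction gene of myelin, lay on the other side without being called (0.28, adjusted p = 0.612). The myelin list gave 0 calls without letter C, 1 without A or E and 3 without B or D.

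The 4 called OPC markers were Gpr17, Neu4, Hes5 and C1ql1. Neu4, a sialidase whose gene is switched on around the start of differentiation, stood at 0.532, 0.226, 1.87, 6.36 and 1.6 CPM under KATi and at 1.75, 0.388, 6.52, 17.4 and 13.8 CPM under SUV420i. The difference was -1.96 ± 0.26 (adjusted p = 0.0113) and held in letters C to E (-2.06 ± 0.27, adjusted p = 0.0167). C1ql1, a secreted synaptic protein made by OPCs, averaged 22.9 ± 12.6 and 38.2 ± 14.7 CPM (SD, n = 5; -0.79 ± 0.12, adjusted p = 0.0224). Its call did not hold in letters C to E (-0.86 ± 0.18, adjusted p = 0.0785). The core progenitor genes did not pass the test. Pdgfra, the receptor for the mitogen PDGF-AA, was lower in every letter by between -0.04 and -0.46 (-0.31 ± 0.08, adjusted p = 0.12). Sox10 (-0.13 ± 0.09, adjusted p = 0.586), Cspg4 (-0.07 ± 0.07, adjusted p = 0.759), Olig1 (0.02, adjusted p = 0.957) and Olig2 (0.01, adjusted p = 0.96) lay near 0. The OPC marker list gave 0 calls without letter C, 2 without E and 7 without D.

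**Figure D2:**
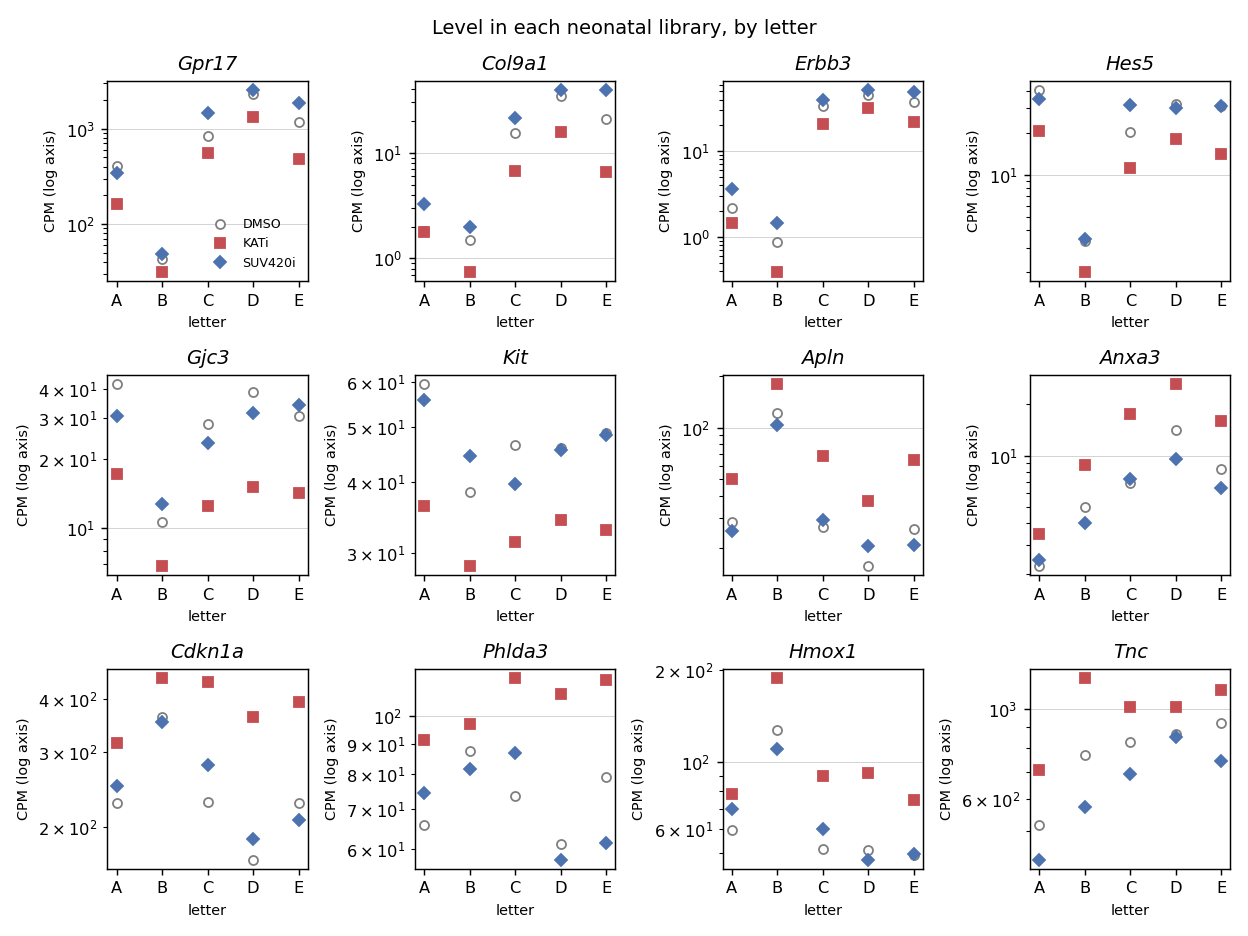
Level in CPM (log axis) of 12 genes in each neonatal library, by letter, with DMSO as open circles, KATi as red squares and SUV420i as blue diamonds. The KATi square lies below the SUV420i diamond in every letter for Gpr17, Col9a1, Erbb3, Hes5, Gjc3 and Kit, and above it in every letter for the other 6 genes. All 12 were called within letters, which favours such agreement. Letters A and B stand apart from C to E in Gpr17, Col9a1 and Erbb3.

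Hes5, Id4, Erbb3 and Kit, which belong to signalling pathways that act on OPCs, were among the lower genes. Hes5, a repressor that Notch receptors switch on and that delays oligodendrocyte differentiation, was the single called gene of 19 measured Notch pathway genes (list median -0.12). It stood at 20.5, 2.01, 11.2, 18.1 and 14.1 CPM under KATi and at 35.1, 3.45, 31.6, 30.2 and 31.2 CPM under SUV420i. Letter B was far below the other letters in both groups, and KATi was lower in each letter (-1.02 ± 0.12, adjusted p = 0.00734). Notch1 (0.07, adjusted p = 0.873), Hes1 (0.15, adjusted p = 0.563) and Dll3, a ligand-like inhibitor of Notch (-0.41, adjusted p = 0.17), did not pass the test. Hes5 shares exon bases with a transcript of the opposite strand, Gm20421. Its own gene lies at bases 154960923 to 154962371 of chromosome 4, plus strand (GENCODE M21, GRCm38). Id4, an inhibitor of basic helix-loop-helix factors that BMP signals induce, averaged 10.2 ± 3.19 CPM under KATi and 18.3 ± 8.87 CPM under SUV420i (SD, n = 5; -0.79 ± 0.12, adjusted p = 0.0213). With letters C to E only, Hes5 kept its call (-1.13, adjusted p = 0.0293) and Id4 did not (-0.89, adjusted p = 0.0514).

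The 250 bases before the start site are shown for Hes5 and Neu4, the called Notch target and the called OPC marker with the largest difference. They come from RefSeq (GRCm38.p6) and are written 5′ to 3′ on the gene's strand. Capitals mark matches, on either strand, to the E-box (CANNTG) or to the binding motif of the Notch effector RBPJ (GTGGGAA). The Hes5 window, chr4:154960673-154960922, held 2 RBPJ motifs and 1 E-box, and the Neu4 window, chr1:94020243-94020492, held 1 E-box.
Hes5: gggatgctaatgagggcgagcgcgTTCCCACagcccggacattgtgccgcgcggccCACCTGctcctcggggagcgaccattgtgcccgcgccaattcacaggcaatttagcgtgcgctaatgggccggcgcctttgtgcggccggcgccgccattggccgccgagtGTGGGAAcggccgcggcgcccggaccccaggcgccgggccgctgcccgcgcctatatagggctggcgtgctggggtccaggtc
Neu4: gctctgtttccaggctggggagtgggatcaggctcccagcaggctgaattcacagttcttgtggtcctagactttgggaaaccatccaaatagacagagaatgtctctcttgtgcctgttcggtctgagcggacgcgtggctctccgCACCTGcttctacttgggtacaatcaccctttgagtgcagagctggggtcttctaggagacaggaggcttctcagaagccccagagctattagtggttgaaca
The RBPJ motif was in 5.4% of the windows of tested genes and 7.32% of those of genes called lower under KATi (9 of 123 windows, from 83 genes). The E-box was in 57.9% and 59.3%. These matches describe the letters of the window and were not tested as binding sites.

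Among the 18 measured growth factor receptors and binding proteins of OPC culture, 2 were called lower and 1 higher (median -0.06). The shares over all genes were 0.774% and 0.311%. Erbb3 stood at 1.46, 0.388, 20.6, 31.7 and 22.1 CPM under KATi and at 3.61, 1.43, 39.9, 51.6 and 48.7 CPM under SUV420i. The difference was -1.06 ± 0.13 (adjusted p = 0.00734) over 5 letters and -0.94 ± 0.14 in letters C to E (adjusted p = 0.0293). Kit, the receptor for stem cell factor, was one of the 30 called genes whose groups did not overlap. It stood at 36.3, 28.5, 31.4, 34.3 and 33 CPM under KATi and at 55.7, 44.4, 39.7, 45.5 and 48.4 CPM under SUV420i, so every KATi library was below every SUV420i library (-0.52 ± 0.08, adjusted p = 0.0224). With letters C to E only, Kit was at -0.44 ± 0.13 (adjusted p = 0.216). Igfbp3, which binds insulin-like growth factors, was higher under KATi (615 ± 134 against 464 ± 95.6 CPM, SD, n = 5; 0.39 ± 0.07, adjusted p = 0.0428). Its call did not hold in letters C to E (0.45 ± 0.11, adjusted p = 0.136). None of the 18 was called without letter C or E. Gjc3, which encodes the glial gap junction protein connexin 29, had the smallest p of all genes. It stood at 17.1, 6.89, 12.5, 15.1 and 14.2 CPM under KATi and at 30.7, 12.8, 23.5, 31.6 and 34.2 CPM under SUV420i. The difference was similar in each letter, between -0.84 and -1.26 (-1.01 ± 0.09, adjusted p = 0.00693).

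Rph3a, Oprl1 and Gpr158, which act in vesicle release and as receptors of the nervous system, were among the 12 named falls. These are the largest among called genes with a mean log2 CPM of at least 2 and the same direction in all 5 letters. Rph3a, an effector of RAB3 in vesicle release, stood at 62.6, 56.3, 28.4, 63.3 and 25 CPM under KATi and at 105, 76.3, 85.6, 95.1 and 99.7 CPM under SUV420i. The groups did not overlap (-1.07 ± 0.20, adjusted p = 0.0428). Oprl1, the nociceptin receptor, stood at 6.2, 4.92, 5.18, 5.22 and 3.32 CPM under KATi and at 10.5, 10.8, 7.76, 9 and 11 CPM under SUV420i, again without overlap (-1 ± 0.16, adjusted p = 0.0224). Gpr158, an orphan receptor of the nervous system, averaged 3.6 ± 0.619 and 8.14 ± 3.62 CPM (SD, n = 5; -1.10 ± 0.20, adjusted p = 0.0354). With letters C to E only, Rph3a (-1.39, adjusted p = 0.0396) and Gpr158 (-1.31, adjusted p = 0.0452) kept their call. Oprl1 did not (-1.03, adjusted p = 0.0901).

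Of 14 measured neuron markers, 2 were called lower and 0 higher (median -0.20), against 0.774% and 0.311% of all genes. A negative sign was found for 12 of the 14 (8873 of all 17057 genes). In edgeR, 7 of the 14 had an unadjusted p below 0.05 (2359 of all genes). Nefl, the light neurofilament chain, stood at 7.45, 5.43, 4.43, 4.37 and 4.23 CPM under KATi and at 9.76, 10.6, 7.52, 7.5 and 8.68 CPM under SUV420i (-0.80 ± 0.12, adjusted p = 0.0224). Rbfox3, a splicing factor of mature neurons, averaged 2.32 ± 0.926 and 4.08 ± 1.98 CPM (-0.80 ± 0.14, adjusted p = 0.0354). Neither kept its call in letters C to E alone, with Nefl at -0.86 (adjusted p = 0.0713) and Rbfox3 at -0.73 (adjusted p = 0.259). Broader neuronal genes did not pass the test, among them Tubb3 (-0.22, adjusted p = 0.336), Syn1 (-0.06, adjusted p = 0.842) and Map2 (0.06, adjusted p = 0.898). Snap25 (5.36 to 15 CPM over the 10 libraries) and Dcx (57.2 to 149 CPM) were lower under KATi in each letter. The summed level of 16 neuron markers ranged from 826 to 1440 CPM under KATi and from 809 to 1250 CPM under SUV420i. Stmn2, an abundant gene of neurons, was at most 0.24 CPM. The part of neuronal cells in these results was not tested. Nefl shares exon bases with Nefm, and Gpr158 and Id4 with antisense models. The neuron list gave 0 calls without letter B, C or E, 1 lower without A, and 6 lower with 1 higher without D.

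Other large falls under KATi were in a collagen, a pigment-cell gene and a BMP-responsive gene. Col9a1, a chain of collagen IX, stood at 1.77, 0.744, 6.66, 15.7 and 6.51 CPM under KATi and at 3.3, 1.98, 21.1, 39.1 and 38.9 CPM under SUV420i (-1.67 ± 0.20, adjusted p = 0.00734). Its difference ranged from -0.87 in letter A to -2.57 in letter E. Tmem100, a membrane protein known as a target of BMP9 signalling in endothelium, averaged 24.8 ± 10.5 and 51.3 ± 17.7 CPM (SD, n = 5; -1.07 ± 0.16, adjusted p = 0.0213). Pmel, which builds the fibrils of melanosomes, differed by -1.06 ± 0.21 (adjusted p = 0.0459), and its exons overlap Dgka and Cdk2. Each of the following lists had 1 or 2 called members, all lower. They were Mx2 of 24 measured interferon-response genes (-0.81 ± 0.16, adjusted p = 0.0465), Elovl7 of 19 fatty acid synthesis genes (-0.61 ± 0.10, adjusted p = 0.0306), and Sfrp1, a secreted WNT inhibitor, of 21 WNT genes (-0.55 ± 0.09, adjusted p = 0.0224). Of 23 imprinted genes, Grb10 (-0.60 ± 0.12, adjusted p = 0.0457) and the long non-coding RNA Kcnq1ot1 (-0.52 ± 0.09, adjusted p = 0.0288) were called, with Kcnq1ot1 overlapping exons of Kcnq1. In the fit of 15 libraries that includes DMSO, Kcnq1ot1 was at -0.50 and was not called (adjusted p = 0.412). With letters C to E only, Col9a1 kept its call (-1.84, adjusted p = 0.0127). Tmem100 (adjusted p = 0.0617), Pmel (0.0734), Mx2 (0.07), Elovl7 (0.0623), Sfrp1 (0.0901), Grb10 (0.0648) and Kcnq1ot1 (0.108) did not. Their fold changes there lay between -0.61 and -1.16.

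Further lower genes, chosen after their values were seen, included the long non-coding RNA Miat (30.2 against 56.8 mean CPM, -0.95 ± 0.10, adjusted p = 0.00693), the carbonic anhydrase-related gene Car8 (62 against 119 CPM, -0.88 ± 0.10, adjusted p = 0.00734) and the semaphorin receptor Plxnb3 (80.7 against 134 CPM, -0.70 ± 0.08, adjusted p = 0.00734). Others were Dnm1, the dynamin of synaptic endocytosis (-0.76 ± 0.08, adjusted p = 0.00693), Rab3c (-0.79 ± 0.12, adjusted p = 0.0224), Cplx1 (-0.52 ± 0.09, adjusted p = 0.0391) and Scg2 (-0.89 ± 0.15, adjusted p = 0.0249). Enpp2, or autotaxin, which oligodendrocytes secrete as they differentiate, averaged 137 against 223 CPM (-0.69 ± 0.10, adjusted p = 0.0164).

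The 12 named rises under KATi, taken from called genes with a mean log2 CPM of at least 2, ranged from 0.76 to 1.16 on the log2 scale. Of the 53 genes called higher, 11 rose by more than 1, not all of which are among these 12. Apln, the peptide apelin, stood at 50.3, 179, 68.3, 37.5 and 65.2 CPM under KATi and at 25.1, 104, 29.1, 20.5 and 20.8 CPM under SUV420i. Letter B was high under both treatments and KATi was higher in each letter, by 0.79 to 1.65 on the log2 scale (1.09 ± 0.12, adjusted p = 0.00693). Adm, the vasodilator peptide adrenomedullin and the single called gene of 18 hypoxia-response genes (list median -0.04), averaged 10.5 ± 8.16 and 4.55 ± 3.04 CPM (SD, n = 5; 1.13 ± 0.16, adjusted p = 0.0168). Lif, a cytokine of the interleukin 6 family that favours oligodendrocyte survival, averaged 6.44 ± 1.53 and 3.42 ± 1.05 CPM (0.92 ± 0.17, adjusted p = 0.0391).

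Anxa3, a phospholipid-binding annexin, had the largest rise among the named genes. It stood at 3.46, 8.83, 17.5, 26.4 and 15.9 CPM under KATi and at 2.45, 3.99, 7.25, 9.57 and 6.48 CPM under SUV420i (1.16 ± 0.14, adjusted p = 0.00734). Aldh1a3, which makes retinoic acid, stood at 4.7, 7.37, 7.2, 5.88 and 4.79 CPM under KATi and at 3.24, 3.06, 2.87, 2.43 and 2.27 CPM under SUV420i. Its groups did not overlap, and it had the smallest p of the named genes in the fit without the letter (1.11 on the log2 scale, unadjusted p = 4.01e-05, adjusted p = 0.31). With the letter it was 1.08 ± 0.15 (adjusted p = 0.0168). The matrix gene Col18a1, which encodes collagen XVIII, stood at 5.81, 31, 11.3, 10.7 and 11.3 CPM under KATi and at 4.27, 8.57, 6.04, 4.23 and 5.26 CPM under SUV420i. The letter B library was the highest in both groups (1.14 ± 0.18, adjusted p = 0.0224).

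Adamts14, a procollagen protease, differed by 0.84 ± 0.15 (adjusted p = 0.0368) and Epha2, an ephrin receptor, by 0.89 ± 0.15 (adjusted p = 0.0306). Rab26, a GTPase of secretory granules, averaged 18.3 ± 9.55 and 9.04 ± 4.64 CPM (SD, n = 5; 0.99 ± 0.11, adjusted p = 0.00693), and its exons overlap Traf7. Klhdc7a (1.09 ± 0.16, adjusted p = 0.0168), the adaptor gene Shb (0.76 ± 0.15, adjusted p = 0.0464) and the small GTPase gene Diras2 (0.76 ± 0.13, adjusted p = 0.0272) complete the 12 named rises. In letters C to E alone, Anxa3, Adm, Apln, Klhdc7a, Aldh1a3, Col18a1 and Rab26 kept their call, with fold changes between 1.07 and 1.34. Adamts14 (0.80), Epha2 (0.96), Lif (1.17), Shb (0.94) and Diras2 (0.84) did not (adjusted p between 0.0558 and 0.118).

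**Figure D3:**
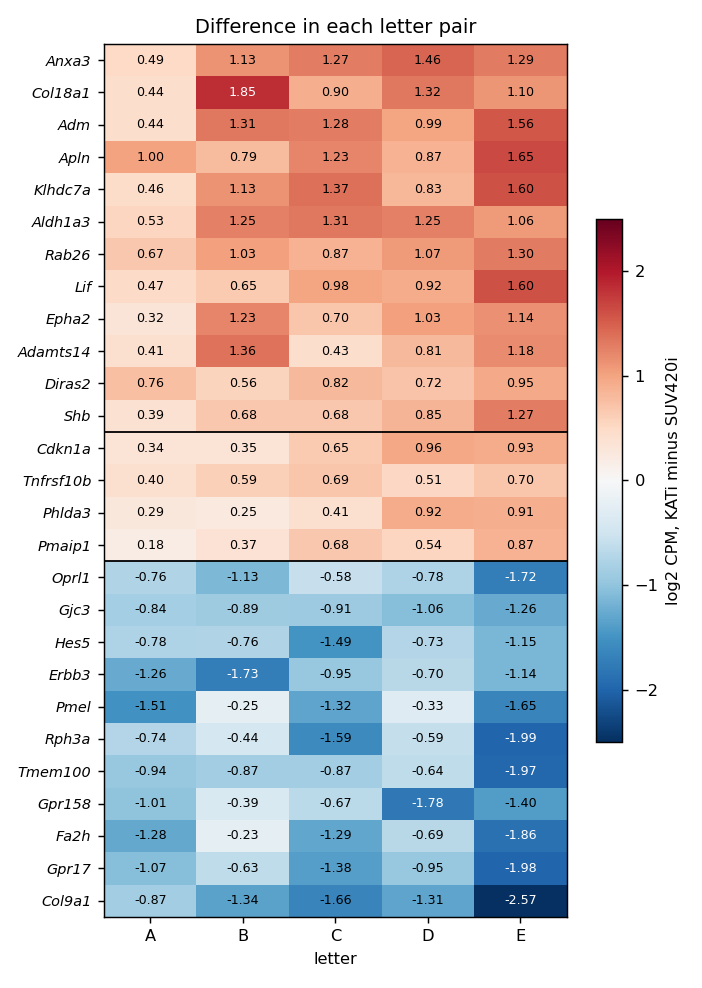
Difference in log2 CPM between KATi and SUV420i within each letter for the 12 named genes with the largest rises (top block), the 4 called genes of the p53 list (middle) and 11 with the largest falls (bottom). All values have the sign of their block, which the choice of the rises and falls required. Letter A has the smallest rise for 10 of the 12 top genes.

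Cdkn1a, Phlda3, Tnfrsf10b and Pmaip1, which the tumour suppressor p53 activates, were higher under KATi. Of 32 measured p53 targets and arrest genes, 4 were called higher and 0 lower, 26 had a positive sign, and the median was 0.29. Over all genes, 0.311% were called higher and 0.774% lower, 48% had a positive sign, and the median was -0.01. Cdkn1a, the cyclin-dependent kinase inhibitor p21, stood at 316, 450, 439, 364 and 395 CPM under KATi and at 250, 354, 280, 187 and 207 CPM under SUV420i (0.63 ± 0.10, adjusted p = 0.0252). The difference was smallest in letters A and B (0.34 and 0.35) and largest in D and E (0.96 and 0.93), and in letters C to E alone it was 0.84 ± 0.12 (adjusted p = 0.0293). The other 3 called genes of this list did not keep their call in letters C to E, with Phlda3 at 0.74 (adjusted p = 0.0627), Pmaip1 at 0.70 (adjusted p = 0.0734) and Tnfrsf10b at 0.63 (adjusted p = 0.0901). Phlda3, an inhibitor of AKT, stood at 91.2, 97.1, 116, 109 and 115 CPM under KATi and at 74.5, 81.5, 86.8, 57.6 and 61.3 CPM under SUV420i, with no overlap (0.55 ± 0.11, adjusted p = 0.0497). Tnfrsf10b, a death receptor, averaged 32.9 ± 8.42 and 21.8 ± 4.76 CPM (SD, n = 5; 0.57 ± 0.09, adjusted p = 0.0213). Pmaip1, the pro-apoptotic protein NOXA, averaged 36.5 ± 7.36 and 25.3 ± 6 CPM (0.52 ± 0.11, adjusted p = 0.0497). Mdm2, the ubiquitin ligase of p53, was not called (0.29, adjusted p = 0.154), nor were Ccng1 (0.35, adjusted p = 0.109), Bax (0.29, adjusted p = 0.214) and the kinase inhibitor gene Cdkn1c, which lay on the other side (-0.78, adjusted p = 0.0668). The list gave 0 calls without letter C or E, 2 without A or B, and 11 higher with 1 lower without D. Under the relative log expression (RLE) scaling 2 were called, and with DESeq2 10 higher and 1 lower. Cdkn1a shares exon bases with a model of the opposite strand.

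Promoter windows of Apln and Cdkn1a are shown for the secreted peptide with the smallest p among the rises and for the called p53 target with the largest difference. The Cdkn1a gene lies at bases 29090976 to 29100727 of chromosome 17, plus strand, and Apln at bases 48025146 to 48034853 of chromosome X, minus strand (GENCODE M21, GRCm38). The window of Apln is chrX:48034854-48035103 on the minus strand and that of Cdkn1a is chr17:29090729-29090978, both from RefSeq (GRCm38.p6). Capitals mark E-boxes (CANNTG) and the GC box (GGGCGG) in Apln, and matches to the 10-base p53 half-site in Cdkn1a.
Apln: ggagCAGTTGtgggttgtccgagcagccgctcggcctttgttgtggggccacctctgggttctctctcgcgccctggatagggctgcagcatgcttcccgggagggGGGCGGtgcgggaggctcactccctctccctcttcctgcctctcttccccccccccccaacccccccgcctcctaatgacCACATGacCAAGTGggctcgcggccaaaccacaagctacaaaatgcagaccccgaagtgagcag
Cdkn1a: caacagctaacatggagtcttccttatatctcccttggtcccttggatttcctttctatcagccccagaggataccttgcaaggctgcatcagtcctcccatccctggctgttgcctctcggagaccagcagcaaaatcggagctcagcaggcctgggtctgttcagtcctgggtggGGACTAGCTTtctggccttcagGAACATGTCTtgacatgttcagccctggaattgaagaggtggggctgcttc
Apln held 3 E-boxes and 1 GC box, and Cdkn1a held 2 p53 half-sites. The half-site was in 5.9% of the windows of tested genes and in 9.8% of those of genes called higher (5 of 51 windows). The E-box was in 57.9% and 56.9% of these windows in the same order, and the GC box in 56.2% and 56.9%. Of the motifs scanned, AP-1 (TGANTCA) had the widest gap, and it is given for that reason although absent from both windows shown. It was in 4.35% of the windows of tested genes and 13.7% of those of genes called higher (7 of 51), with 5.69% for genes called lower. The 51 windows came from 39 genes, so a gene can count more than once. These shares were not tested. A total of 38 of the 59 named genes had a window in the table, and a match is a description of these letters only.

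A few stress, receptor and matrix genes were also higher under KATi. Hmox1, or heme oxygenase 1, was the single called gene of 30 oxidative stress genes (list median 0.05). It stood at 78.5, 189, 89.5, 92 and 74.8 CPM under KATi and at 70, 110, 60, 47.7 and 49.6 CPM under SUV420i, with letter B highest in both groups (0.60 ± 0.11, adjusted p = 0.0364). Cryab, a small heat shock protein and the single called gene of 19 heat shock genes (list median 0), averaged 28.4 ± 14.4 and 16.6 ± 6.3 CPM (SD, n = 5; 0.71 ± 0.14, adjusted p = 0.0474). Its exons overlap Hspb2. Chrm3, a muscarinic acetylcholine receptor, was the called member of 24 ion channel and transmitter receptor genes (0.65 ± 0.13, adjusted p = 0.0464, list median -0.11). Tnc, the matrix protein tenascin-C, stood at 706, 1190, 1010, 1010 and 1110 CPM under KATi and at 426, 574, 692, 851 and 744 CPM under SUV420i (0.62 ± 0.11, adjusted p = 0.0354). Of 28 TGF-beta, BMP and matrix genes, Tnc was called higher and Id4 and Bmp4 lower (median 0.01). None of Hmox1, Cryab, Chrm3 and Tnc passed the test in letters C to E alone (adjusted p 0.0617 for Hmox1, 0.0826 for Cryab, 0.101 for Chrm3 and 0.17 for Tnc). Their fold changes there were 0.70, 0.82, 0.81 and 0.45 in the same order. Genes chosen after their values were seen included Lgals1, or galectin 1 (301 against 185 mean CPM, 0.68 ± 0.10, adjusted p = 0.0224), and the actin-linked genes Msn (0.50 ± 0.08, adjusted p = 0.0289) and Zyx (0.40 ± 0.08, adjusted p = 0.0465). Ccnd1, or cyclin D1, averaged 1250 against 911 CPM (0.49 ± 0.10, adjusted p = 0.0465).

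Cell cycle genes leaned to the KATi side without a call. All 50 measured S phase genes had a positive sign (48% of all genes did), with a median of 0.27. An unadjusted p below 0.05 in blocked edgeR was found for 27 of them, and for 2359 of all 17057 genes. edgeR called 0 of them, DESeq2 with the letter as block called 3, and edgeR called 1 without letter B and 2 without D. The median was 0.28 with RLE scaling, 0.45 in letters C to E and 0.20 without letter E, where 49 of 50 were positive. Pcna, the sliding clamp of DNA replication, averaged 122 against 102 CPM (0.24, adjusted p = 0.322), and the helicase subunit Mcm4 averaged 226 against 176 CPM (0.35, adjusted p = 0.0946). Of 56 G2 and M phase genes, 50 were positive and edgeR called 0 (median 0.12, 6 at an unadjusted p below 0.05, 1 called by DESeq2), while edgeR called 1 without letter B and 2 without D. Mki67, a marker of dividing cells, lay at -0.05 ± 0.10 (adjusted p = 0.886), with KATi values of 1480, 1190, 525, 517 and 688 CPM and SUV420i values of 1290, 1210, 511, 729 and 638 CPM. Letters A and B were the highest in both groups. For 29 immediate early genes, which respond within minutes to growth factors and activity, 25 signs were positive and the median was 0.21. edgeR called 0 of them (10 at an unadjusted p below 0.05), or 6 without letter D, and DESeq2 called 3. Fos, the most familiar of them, averaged 16 against 11.9 CPM (0.44, adjusted p = 0.0768).

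**Figure D4:**
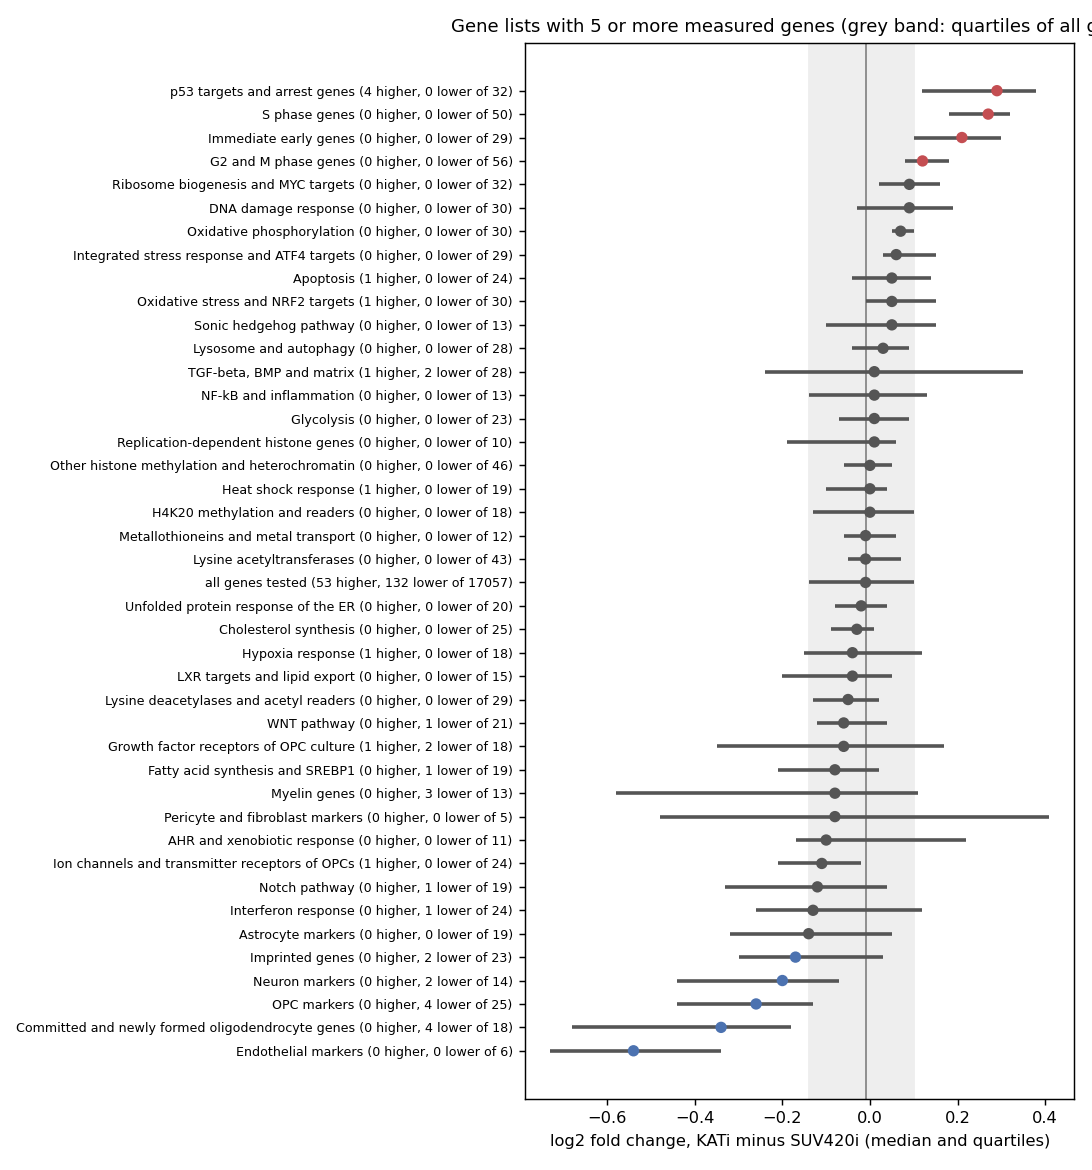
Median (point) and quartiles (line) of the log2 fold change, KATi minus SUV420i, for each gene list with 5 or more measured genes, with the counts called higher and lower, beside the quartiles of all 17057 genes (grey band). Points are red above and blue below that band, and the p53 and S phase lists (0.29 and 0.27) lie highest while the committed oligodendrocyte and endothelial lists (-0.34 and -0.54) lie lowest.

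The genes of the inhibited enzymes themselves did not pass the test. Kat5 stood at 58.8, 48.6, 59.9, 66 and 52.2 CPM under KATi and at 53.2, 51.8, 72.5, 55.9 and 52.9 CPM under SUV420i (-0.01 ± 0.09, adjusted p = 0.97). Ep300 averaged 144 ± 29.9 and 138 ± 24 CPM (SD, n = 5; 0.05 ± 0.15, adjusted p = 0.937), and its relative Crebbp 119 ± 19.5 and 124 ± 16.9 CPM (-0.07 ± 0.12, adjusted p = 0.855). Kmt5b (-0.16 ± 0.12, adjusted p = 0.624) and Kmt5c (-0.10 ± 0.09, adjusted p = 0.68) did not pass the test, and neither did Kmt5a, which was higher under KATi in all 5 letters (137 ± 9.88 against 115 ± 12.5 CPM, 0.24 ± 0.07, adjusted p = 0.154). None of 43 lysine acetyltransferase genes (median -0.01) and none of 18 genes of H4K20 methylation and its readers (median 0) was called by edgeR. An unadjusted p below 0.05 was found for 2 of the 43 and 4 of the 18, against 2359 of all 17057 genes. Without letter D, 1 of the 18, the mismatch repair gene Msh6, was called higher (median 0.09). RNA levels do not measure the activity of these enzymes, and histone marks were not analysed here.

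Most defining markers of microglia, endothelium and fibroblasts were at or near 0, while astrocyte and neuron markers were measurable. C1qa, of microglia, was at 0 in all 10 libraries and Tmem119 in 8, Cldn5 and Dcn, of endothelium and fibroblasts, in 8 each. Exceptions included Kdr of endothelium (2.7 to 6.2 CPM) and, of pericytes and fibroblasts, Col1a1 (0.453 to 2.13 CPM) and Acta2 (3.02 to 9.32 CPM). Acta2 was higher under KATi in each letter. All 6 measured endothelial markers had a negative sign (median -0.54, 0 called), among them Kdr (-0.55, adjusted p = 0.0941), and the summed level of 10 such markers was 14.7 to 22.4 CPM under KATi and 20.8 to 31.4 CPM under SUV420i. DESeq2 with the letter as block called 1 of them, and in letters C to E 5 of the 6 were negative. The summed level of 20 astrocyte markers was 3020 to 3630 CPM and 3140 to 4100 CPM, with 0 of 19 measured genes called, and Gfap was at most 6.3 CPM. Of 5 measured pericyte and fibroblast markers, 2 had a positive sign, edgeR called 0 and DESeq2 with the letter as block called 1 higher. Pericyte and fibroblast markers summed to 9.15 to 13.5 CPM under KATi and 4.92 to 10.5 CPM under SUV420i. Their part in the results above was not tested.

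Set beside the vehicle cultures, in a fit of the 15 KATi, SUV420i and DMSO libraries with the letter as block, the genes fell into different patterns. These comparisons share libraries, so their values are given side by side without a test of their relation. For Hes5, KATi minus DMSO was -0.95 ± 0.12 and SUV420i minus DMSO 0.07 ± 0.11 (SE), and for Gjc3 these values were -1.15 ± 0.11 and -0.14 ± 0.11. Kit (-0.56 ± 0.08 and -0.04 ± 0.08) had the same form, with the SUV420i cultures near the vehicle. Rph3a lay on both sides of the vehicle, at -0.54 ± 0.19 and 0.54 ± 0.19, as did Tmem100 (-0.53 ± 0.15 and 0.54 ± 0.15). Enpp6 did too, at -1.56 ± 0.51 under KATi and 1.13 ± 0.41 under SUV420i. Other genes lay further from the vehicle under SUV420i, with Bmp4 at -0.73 ± 0.44 and 1.48 ± 0.38, Oprl1 at -0.35 ± 0.15 and 0.64 ± 0.14, Nefl at -0.20 ± 0.12 and 0.59 ± 0.12, and Rbfox3 at 0.14 ± 0.14 and 0.95 ± 0.13. Of the rises, Apln (1.04 ± 0.12 and -0.06 ± 0.12), Rab26 (1.04 ± 0.11 and 0.05 ± 0.11), Col18a1 (1.15 ± 0.16 and 0.02 ± 0.17), Cdkn1a (0.71 ± 0.10 and 0.08 ± 0.10) and Hmox1 (0.62 ± 0.09 and 0.02 ± 0.09) were above the vehicle under KATi and close to it under SUV420i. Tnc was above it under KATi (0.35 ± 0.09) and below it under SUV420i (-0.26 ± 0.09). In this fit of 15 libraries, 409 of 17856 genes (2.29%) were called between KATi and SUV420i, 132 higher (0.739%) and 277 lower (1.55%), and 181 of them were among the 185.

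The same contrast in adult cells showed many of these genes with the same sign. With the letter as block, 335 of 17953 genes (1.87%) were called between 4 KATi and 4 SUV420i adult libraries, 123 higher (0.685%) and 212 lower (1.18%). Hes5 differed by -0.96 ± 0.11 in adult cells (adjusted p = 0.00301) and -1.02 ± 0.12 in neonatal ones, Gpr17 by -1.10 ± 0.17 (adjusted p = 0.0136) and -1.22 ± 0.16, and Anxa3 by 1.15 ± 0.12 (adjusted p = 0.00264) and 1.16 ± 0.14. Col18a1 was at 1.07 ± 0.15 (adjusted p = 0.00863) and Cdkn1a at 0.50 ± 0.09 (adjusted p = 0.0259) in adult cells. Other genes had smaller values in adult cells. Gjc3 was at -0.37 ± 0.10 (adjusted p = 0.104), Erbb3 at -0.30 ± 0.13 (adjusted p = 0.273), Mbp at 0 ± 0.15 (adjusted p = 0.996), Diras2 at 0.15 ± 0.16 (adjusted p = 0.677) and Shb at 0.17 ± 0.18 (adjusted p = 0.672). Kcnq1ot1 lay on the other side (0.23 ± 0.14, adjusted p = 0.413), and Tnc was at 1.14 ± 0.13 (adjusted p = 0.00301).

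The test of the difference between ages called no gene. edgeR called 0 of 20259 genes without the letter (0%, 177 at an unadjusted p below 0.05) and 0 of 18726 with it (0%, 453 at an unadjusted p below 0.05), and DESeq2 called 0. The smallest adjusted p was 1 and 0.999. For Gjc3 the neonatal minus adult difference was -0.61 ± 0.14 (unadjusted p = 0.000625), for Kcnq1ot1 -0.72 ± 0.18 (0.00125), for Apln 0.61 ± 0.16 (0.00233) and for Erbb3 -0.71 ± 0.20 (0.00375), each with an adjusted p of 0.999. No difference between neonatal and adult cells in this contrast can therefore be named.

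**Figure D5:**
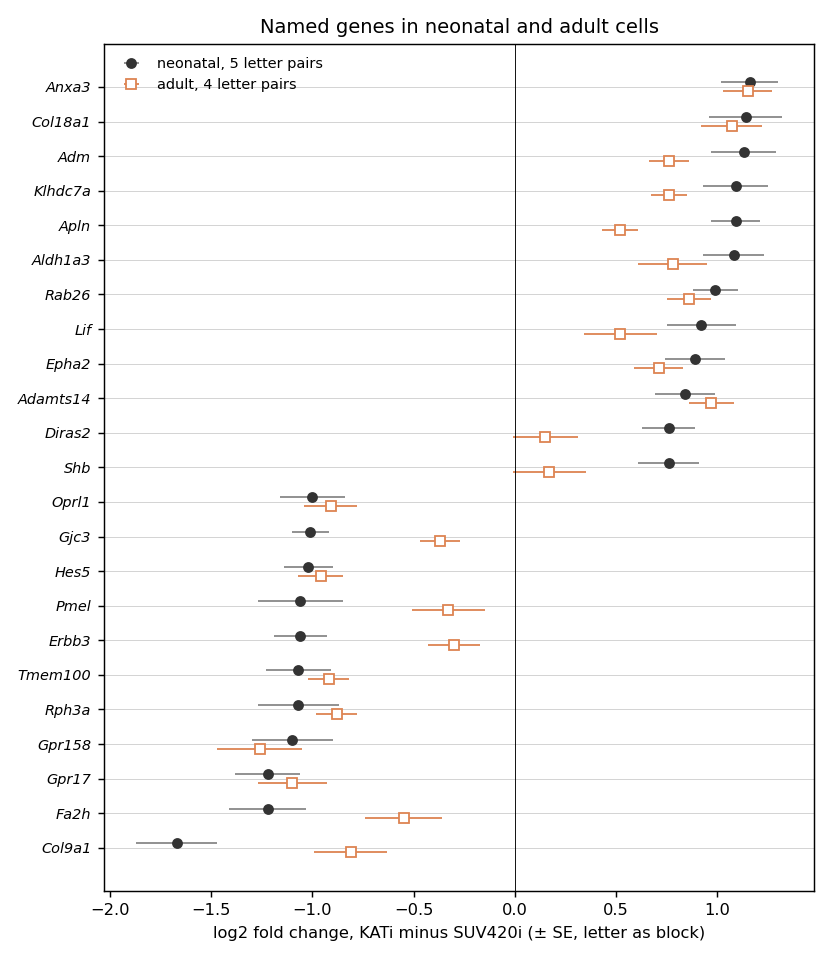
Log2 fold change, KATi minus SUV420i (± SE, letter as block), of 23 named genes with the largest rises and falls in neonatal cells (filled circles, 5 letter pairs) and the same genes in adult cells (open squares, 4 letter pairs). Neonatal values chose these genes, and the adult values have the same sign for all 23, from 1.15 for Anxa3 to -1.26 for Gpr158.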

How the data were processed

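RNA-seq libraries of mouse OPC cultures were analysed from the gene-level counts the authors deposited, as whole numbers without normalization. Per the submitters' processing notes, mm10, CASAVA 1.8.2, Subread, featureCounts and DESeq2 were used, with no roles stated. The annotation release and strand setting were not given in the sources used here. Symbols were found for 52073 of 56980 identifiers. Groups and letters came from the labels. Counts were tested in R 4.3.3 with edgeR 4.0.16 (quasi-likelihood test, TMM scaling, filterByExpr with a minimum count of 10, Benjamini-Hochberg adjustment, threshold 0.05), over all 32 libraries without a block and over the 10 libraries with the letter as block. DESeq2 1.42.0 and other settings were alternatives. The SE of a log2 fold change was its size divided by the square root of F. CPM used TMM-scaled totals of all 32 libraries, and differences within a letter used a prior count of 2. The libraries of the same letter deviated together from their group means, with correlations of 0.56, 0.67, 0.53, 0.16 and 0.23 for letters A to E over 17057 genes, all above the 0.1 required, so named genes were taken from the blocked fit. Letter D under KATi correlated best with letter C under SUV420i (0.63). The closest libraries of 1 group differed by far more than counting noise (chi-square per degree of freedom 21.06), so none was treated as a repeat. Among genes that passed the test, the 12 highest and the 12 lowest fold changes were named, given a mean log2 CPM of at least 2 and the same direction in all 5 letters, with no predicted, mitochondrial or ribosomal protein genes. To these were added up to 5 called members of lists with at least 3 called or 1 in 5 called, up to 2 of other lists, and 10 genes always named. The members and lists were chosen with earlier results of these data known. The tests were checked on simulated counts, where the blocked fit made more false calls than its threshold implies and the fit without a block made fewer. 1 of the named genes is not reported here.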

Additional observations from a re-analysis of the deposited data

Results flagged for a closer look

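In groups of 5 libraries, a value was picked out when its gap to the nearest of the others, divided by the range of the group, passed Dixon's critical value of 0.71. This held for 18 of 118 combinations of gene and group. The rate of about 1 in 20 expected by chance holds for independent, normally distributed values. These were CPM values without a log scale, of genes that shared shifts between letters, so the count cannot be judged against that rate. Most of these values came from letter B. Under KATi, the letter B library was far above the other 4 for Adamts14 (51.7 CPM), Adm (24.8 CPM), Apln (179 CPM), Col18a1 (31 CPM), Cryab (53.3 CPM), Diras2 (11.2 CPM), Hmox1 (189 CPM) and Shb (11 CPM). Under SUV420i it was far above the others for Adm (9.96 CPM), Apln (104 CPM), Diras2 (7.56 CPM), Klhdc7a (17.6 CPM) and Pmaip1 (35.7 CPM), and far below them for Hes5 (3.45 CPM). Letter B was thus apart under both treatments for Adm, Apln and Diras2. Letter D was high for C1ql1 (44.6 CPM) and Neu4 (6.36 CPM) under KATi and for Bmp4 (5.8 CPM) under SUV420i. Letter C was high for Kat5 under SUV420i (72.5 CPM).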

How the results depend on the processing

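The number of genes called depended on the block and the letters, and the cause was not tested. Without a block, edgeR called 0 genes over 32 libraries and 0 over 10, DESeq2 called 9, and leaving out 1 library gave 0 to 1 (Gramd1b, without KATi letter B). With the letter as replicate block it called 185 over 10 libraries, 409 over 15, 713 with no filter on low counts and 462 with DESeq2. Leaving out 1 letter gave 2 (without C) to 777 (without D), with 43 without A, 96 without B and 11 without E. Letters C to E only, an alternative chosen after seeing the data, gave 58. Of 49 named called genes, 49 stayed called with DESeq2 and the block and 47 with RLE factors. Fewer did with letters left out: 21 in letters C to E, 2 of 48 without C and 8 of 48 without E. None changed direction in any setting, which their choice by the blocked fit of the same libraries made likely. Pdgfra passed the test with no filter on low counts (adjusted p = 0.00898). The difference between ages gave 0 calls in every setting. Depth limits genes such as Enpp6 and Bmp4, which had 0 or near 0 CPM in some libraries.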
